A study of Homo sapiens with 6 samples.

Results

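The protein-coding transcriptome of KMS11 cells carrying a scramble short hairpin RNA is described here by abundance, without any comparison of groups. KMS11 is an established human multiple myeloma line, that is, a culture of malignant plasma cells. The members are the genes with a mean of at least 1 TPM, a level per transcript length that is scaled to the same total in every library, over the 3 scramble libraries, and 11135 of the 17918 genes in the table (62.1%) met this level. The study set these control cells beside KMS11 cells with a hairpin against CRIP1, in 6 libraries in all; the knockdown libraries are not used below. The scramble cells are labelled WT in genotype and untreated, were grown in RPMI medium with serum, and carry a hairpin that targets no named gene. Each library was made from total RNA with a SMARTer mRNA kit. A single cell line stands for 1 tumour, so the 3 libraries are replicates of a culture and not of patients. The series describes them as biological replicates but does not say that they came from separate cultures, so the spread between them may in part be technical.

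Plasma cells are the antibody-secreting end stage of B cell development. They are known for an enlarged endoplasmic reticulum (ER), driven by the transcription factor XBP1, and for having shut down the B cell programme through PRDM1 and IRF4. Multiple myeloma is a malignancy of these cells, often with a translocation that places an oncogene such as FGFR3, NSD2, MAF or a cyclin D gene beside an immunoglobulin enhancer. TPM divides the reads of a gene by a length for its transcript, which can be shorter than the full transcript. It scales each library to the same total. Levels of different genes can thus be compared, but only as parts of the RNA that the table covers. Immunoglobulin constant and variable genes and the genes of the mitochondrial genome are not analysed here. A search of the table by name found 0 mitochondrial genes and, for immunoglobulin, only JCHAIN, IGLL5 and IGLL1. Shares below are of the genes in the table.

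The 3 libraries held 17089392, 17243017 and 16971454 estimated counts, and 11151, 11156 and 11134 genes of at least 1 TPM. All 3 libraries placed 10948 genes at or above 1 TPM, and another 409 genes reached it in 1 or 2 of them. Just inside the threshold were KCNJ14, POPDC3 and PTGES, each at 1 TPM. Just outside it were NCKAP5L, CAMK2A, LMO2 and RNF180, each at 0.997 TPM. No count was assigned in any library to 2405 genes (13.4%). With 51303863 counts in all, 0 counts allow a level of up to 0.0585 CPM (counts scaled to a library total, as TPM is, but not divided by length), a limit that covers counting error only.

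Abundance was concentrated in few genes. The most abundant gene held 1.40% ± 0.0198 of TPM (SD, n = 3), the first 10 held 8.08% ± 0.0372, the first 100 held 32.4% ± 0.126 and the first 1000 held 67.5% ± 0.124. The first 59 genes made up 25% of TPM and the first 324 genes 50%, whereas 99% took 8561 genes. At the top, 155 genes of at least 1000 TPM held 39.1% of TPM, and 1680 genes of at least 100 TPM held 76.1%. The median expressed gene stood at 22.5 TPM.

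**Figure D1:**
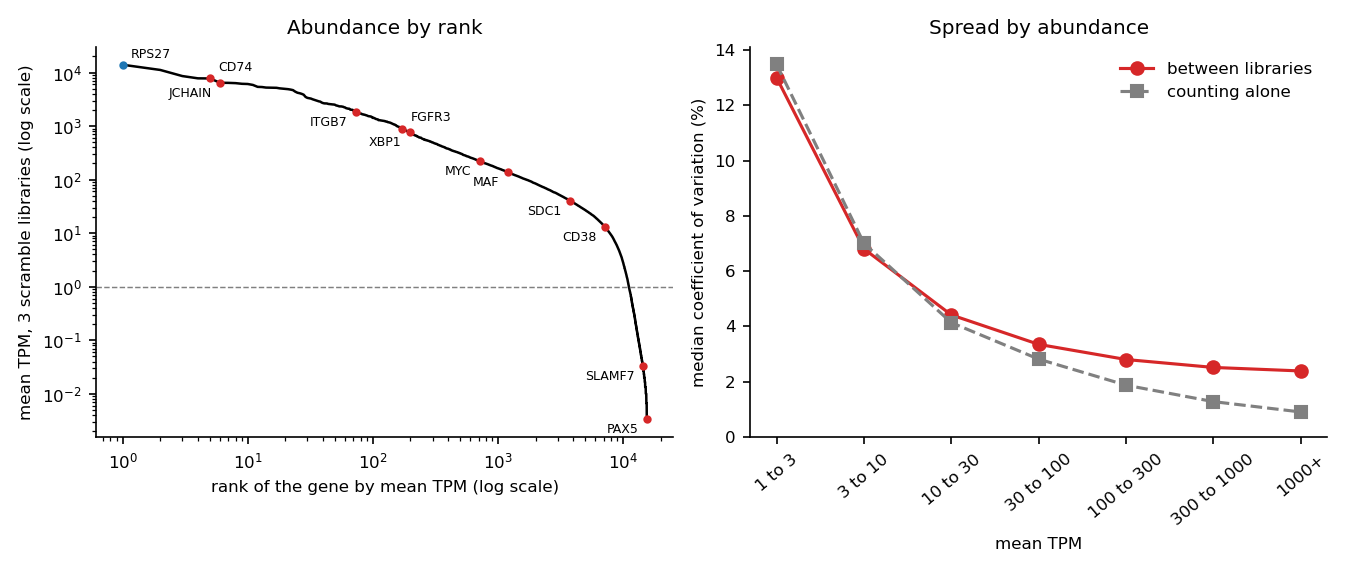
Left, mean TPM of each gene over the 3 scramble libraries against its rank, both on log scales, with the 1 TPM threshold dashed and selected genes marked. Right, the median coefficient of variation (SD divided by the mean) between libraries by level of expression, in red, beside the median value expected from counting, in grey. The red line falls from 13.003% at 1 to 3 TPM to 2.39% at 1000 TPM or more, where the expected value is 0.906%. A median over values from 3 libraries tends to lie below the expected value, so the lines are not on an equal footing.

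Ribosomal protein genes led the ranking and took 16 of the first 30 places and 51 of the first 100. RPS27, a protein of the small ribosomal subunit, was listed at 14093.5, 14118.8 and 13763.1 TPM, and RPL41, of the large subunit, at 11623.5, 11153.8 and 10746 TPM. No library of RPL41 reached the lowest of RPS27. Below them were MTRNR2L2 at 8596 ± 102 TPM and MTRNR2L8 at 7792 ± 319 TPM, whose sequences closely resemble each other and the mitochondrial ribosomal RNA gene, so the reads behind them cannot be assigned with certainty. CD74, the invariant chain that guides MHC class II molecules, came next with 7605.52, 7636.18 and 8015.83 TPM. JCHAIN, the joining chain of polymeric antibodies, followed with 6640.77, 6200.49 and 6486.53 TPM. The elongation factor EEF1A1 (6414 ± 200 TPM), which overlapped JCHAIN in range, and the glycolytic enzyme GAPDH (6160 ± 206 TPM) followed. The actin-binding thymosins TMSB4X and TMSB10 stood at 6110 ± 71.2 and 5868 ± 70.9 TPM. Beyond these, the first 30 held B2M (4694 TPM), the ferritin heavy chain FTH1 (4192 TPM), the prolyl isomerase PPIA (4804 TPM), the nascent chain factor NACA (4109 TPM), PTMA (3854 TPM) and the glycolytic enzyme ENO1 (3504 TPM). CRIP1, the LIM-domain gene targeted elsewhere in the study, ranked 34 in the scramble cells with 2790.89, 3326.68 and 3173.99 TPM.

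The order depended on the division by transcript length. The length implied by the ratio of counts to FPKM had a median of 463 bases among the 30 most abundant genes, against 2826 bases among all expressed genes. The implied length is the length used in the division and not the full length of a transcript. It was 89 bases for RPS27, 48 for RPS29, 97 for RPS21 and 121 for RPL39. At such lengths a TPM value rests on few possible fragment positions. Ranked by estimated counts, which favour long transcripts instead, EEF1A1 came first with 1.21% of all counts, followed by CD74 (0.538%), MTRNR2L8 (0.461%) and JCHAIN (0.378%). RPS27 held 0.0729% of counts. Only 13 genes were in both lists of 30. CD74, JCHAIN, GAPDH, EEF1A1, MTRNR2L2 and MTRNR2L8 were in the first 10 of both. The long actin cross-linker FLNA was 8 by counts and 228 by TPM. The integrin chain ITGB7 was 10 and 73, and the receptor FGFR3 was 20 and 171.

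Sorted into non-overlapping functional classes, the RNA was led by translation. The 87 cytosolic ribosomal protein genes held 19.78%, 19.96% and 19.52% of TPM in the 3 libraries, but 5.36% of counts. The nuclear genes of oxidative phosphorylation held 4.37% ± 0.0211 of TPM and 1.58% of counts, led by the ATP synthase gene ATP5F1B (2537 TPM). Splicing and RNA-binding genes held 3.32% ± 0.0577 of TPM, with PCBP2 (1534 TPM) the highest, and translation factors 2.81% ± 0.0195. By counts these last classes were larger, at 4.55% and 3.55%. Actin cytoskeleton genes held 2.96% ± 0.0257 of TPM, cytosolic chaperones 2.34% ± 0.0172 and glycolysis 2.06% ± 0.0257. The genes outside every class, 15034 in number, held 39.6% of TPM.

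**Figure D2:**
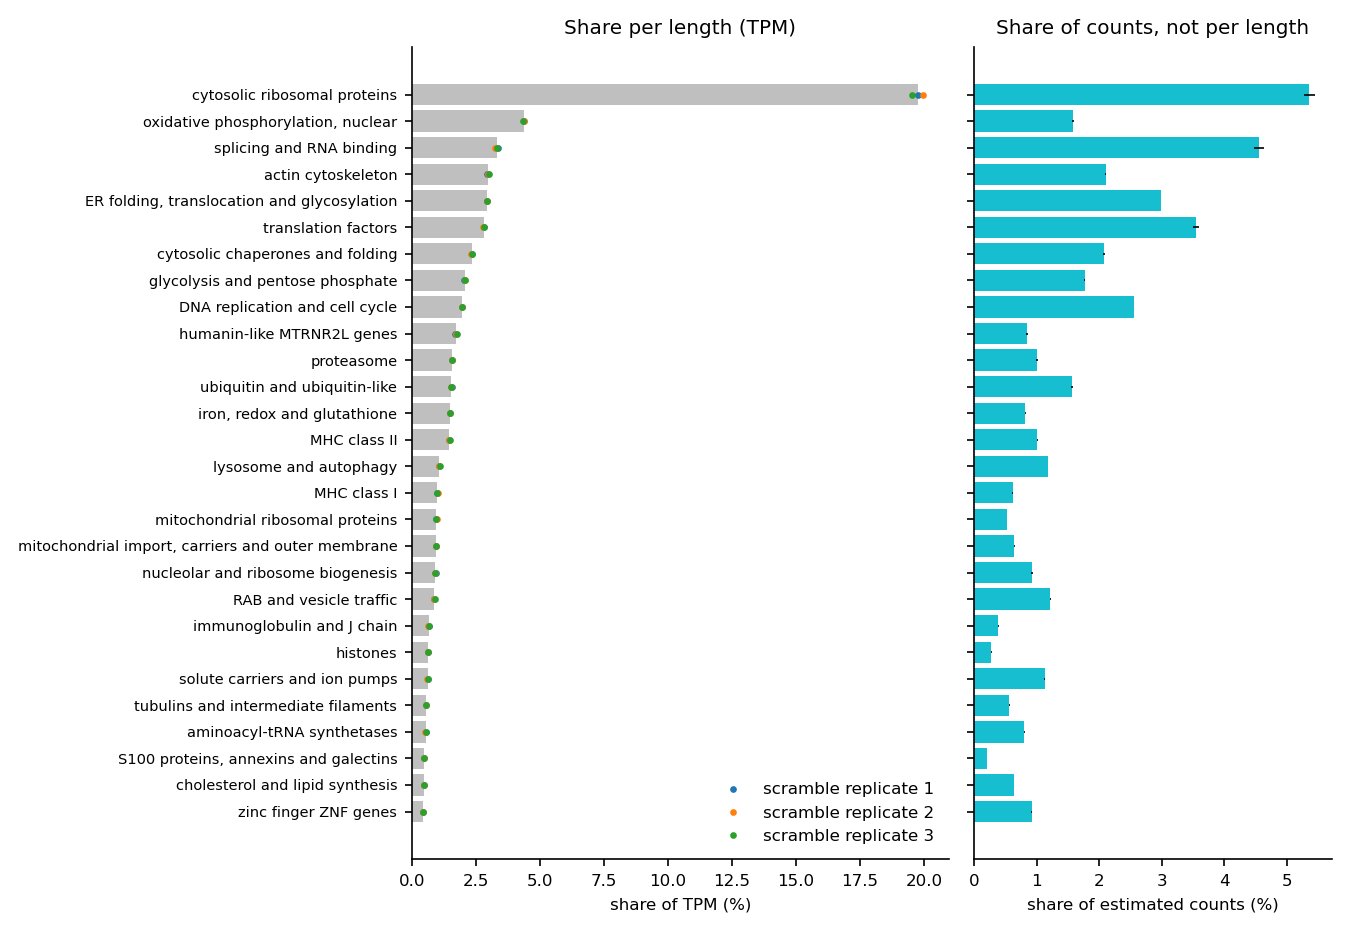
Share of each functional class in TPM (left, grey bars, mean with SD, the 3 libraries as points) and in estimated counts, which are not divided by length (right, mean with SD). Cytosolic ribosomal proteins lead on both scales, at 19.7% of TPM and 5.36% of counts.

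The proteasome genes held 1.56% ± 0.0157 of TPM and 1.01% of counts. Of these 53 genes 52 were expressed, at a median of 192 TPM, where 62.1% of all genes were expressed. PSMB4, a subunit of the catalytic core, led them at 2653 ± 20.9 TPM, followed by the ubiquitin receptor PSMD4 (944 ± 45.0 TPM). Genes of ubiquitin and ubiquitin-like proteins, their conjugation and removal and related factors held 1.53% ± 0.0227, led by the polyubiquitin gene UBB (1711 TPM). Lysosome and autophagy genes held 1.08% ± 0.00640, led by the autophagy receptor SQSTM1 (1337 TPM) and the tetraspanin CD63 (1185 TPM). Iron, redox and glutathione genes held 1.49% ± 0.0118 of TPM and 0.815% of counts, led by FTH1 and the light chain FTL (2333 TPM).

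Cell cycle genes were expressed almost throughout. Of 170 replication and cell cycle genes, 164 reached 1 TPM, where 62.1% of all genes did. The class held 1.97% ± 0.00299 of TPM. Its highest members were the chromatin protein HMGB2 at 1568 ± 20.6 TPM and CKS1B, a partner of cyclin-dependent kinases, at 1279 ± 56.2 TPM. Histones held 0.628% ± 0.0115 of TPM and 0.276% of counts. Most of the TPM share came from H2AZ1 (2532 ± 151 TPM) and H3-3A (1219 ± 96.6 TPM), variants whose messages are polyadenylated. Among 82 histone genes 49 were expressed, at a median of 6.23 TPM, where 62.1% of all genes were expressed. Their median coefficient of variation was 20.3%, against 4.33% for all expressed genes, whose median level was 22.5 TPM. Some histone genes had few counts, such as H2AC11 with 39, 29 and 19 and H4C9 with 15, 14 and 9. The 20.3% and 4.33% are thus not on an equal footing.

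The ER machinery was expressed nearly as a whole. Of 150 genes of ER folding, translocation and glycosylation, 145 reached 1 TPM and 2 had no counts. Over all genes 62.1% reached 1 TPM and 13.4% had no counts. The class held 2.94%, 2.94% and 2.95% of TPM in the 3 libraries and 2.99% of counts, so its share hardly depended on transcript length. Its highest members were SEC11C, a signal peptidase subunit (1290 ± 18.5 TPM), the lectin chaperone CALR (1283 ± 8.70 TPM), the translocon subunit SEC61G (1130 ± 26.6 TPM) and SSR2, of the translocon-associated complex (1095 ± 32.5 TPM). The luminal chaperones HSP90B1 (568 ± 13.4 TPM) and HSPA5 (304 ± 5.29 TPM) were lower.

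The promoters of this class are shown because 9 of its genes share a written signal. RefSeq promoters of build GRCh38.p14, from 250 bases before to 50 bases after the start, were matched by gene identifier for 14265 of the 17918 genes (79.6%) and for 134 of the 150 ER genes (89.3%). The ER stress element, searched on both strands as CCAAT, 9 bases of any kind and CCACG, an arrangement known to be bound by NF-Y and ATF6, was found in 9 of those 134 promoters (6.72%), against 0.152% of the promoters of expressed genes and 0.0806% of the 27305 promoters in the reference table. The CCAAT box is the start of this element, so the searches overlap. The 9 genes were CALR, XBP1, CANX, HSP90B1, HSPA5, SERP1, CRELD2, ALG12 and ERO1B, at levels from 1283 TPM (CALR) to 4.87 TPM (ERO1B). A match is a string of letters and not a measured binding site. The 4 most abundant ER genes with the element in the 150 bases before the start are printed 5′ to 3′ on the strand of the gene, with the element in capitals; in HSP90B1 and CRELD2 it is read on the opposite strand. They lie on the minus strand at chr22:28800570-28800719 (XBP1), on the plus strand at chr12:103930260-103930409 (HSP90B1), on the minus strand at chr9:125241344-125241493 (HSPA5) and on the plus strand at chr22:49918484-49918633 (CRELD2).
XBP1: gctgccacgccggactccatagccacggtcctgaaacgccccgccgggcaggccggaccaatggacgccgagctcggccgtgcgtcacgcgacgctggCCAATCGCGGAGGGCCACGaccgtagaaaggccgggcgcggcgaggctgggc
HSP90B1: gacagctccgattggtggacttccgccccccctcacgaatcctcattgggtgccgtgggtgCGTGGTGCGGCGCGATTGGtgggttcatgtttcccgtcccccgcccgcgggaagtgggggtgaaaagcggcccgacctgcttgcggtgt
HSPA5: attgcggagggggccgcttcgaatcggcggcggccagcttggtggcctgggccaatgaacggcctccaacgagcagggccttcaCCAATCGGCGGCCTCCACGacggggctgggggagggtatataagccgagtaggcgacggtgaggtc
CRELD2: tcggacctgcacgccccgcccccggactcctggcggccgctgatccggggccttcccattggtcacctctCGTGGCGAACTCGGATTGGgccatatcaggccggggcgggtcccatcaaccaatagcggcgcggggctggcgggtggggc

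Histone promoters carried other letters. Of the 76 histone promoters matched (92.7% of the class), 47.4% held TATAAA between 40 and 20 bases before the start, searched on the strand of the gene, and 86.8% held CCAAT on either strand; over all matched promoters the shares were 2.88% and 36.3%. The 2 most abundant histone genes with a TATA box are printed with it in capitals, from the minus strand at chr4:99950276-99950425 (H2AZ1) and the minus strand at chr6:27146859-27147008 (H2BC12, 491 ± 27.3 TPM).
H2AZ1: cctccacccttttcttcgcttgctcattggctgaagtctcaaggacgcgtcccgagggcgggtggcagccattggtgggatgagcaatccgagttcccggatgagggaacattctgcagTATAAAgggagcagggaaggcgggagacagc
H2BC12: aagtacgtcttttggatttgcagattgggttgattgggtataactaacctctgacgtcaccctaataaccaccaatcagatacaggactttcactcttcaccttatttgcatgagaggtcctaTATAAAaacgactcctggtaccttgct

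Across the expressed genes, CpG-rich promoters, here at least 50% G and C with a CpG ratio of at least 0.6, made up 75.4% at 1 to 10 TPM, 86.5% at 10 to 100 TPM, 87.0% at 100 to 1000 TPM and 82.9% at 1000 TPM or more. TATAAA was found in 1.89%, 1.12%, 2.18% and 5.43% of the same sets, the last being only 7 of 129 promoters. Only 74.1% of the genes below 1 TPM had a promoter in the reference, so the check is void for them and no share is given.

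The plasma cell genes were mostly expressed, with gaps among the surface markers. Of 25 plasma cell identity genes, 20 reached 1 TPM (80%, against 62.1% of all genes). The summed level of the list was 12284, 11742 and 12029 TPM. JCHAIN supplied more of that sum than all the others together. The survival kinase PIM2 (1148 TPM) and XBP1 (768.48, 766.69 and 784.53 TPM) came next among the regulators. IRF4 stood at 182.31, 176.55 and 177.89 TPM, POU2AF1, a B-lineage coactivator, at 191 TPM, ELL2, an elongation factor of antibody secretion, at 174 TPM, and PRDM1 at 66.8 TPM. The syndecan SDC1, the usual surface marker of plasma cells, had 39.8 TPM and CD38 13.2 TPM. SLAMF7 (0.0333 TPM), FCRL5 (0.0267 TPM), CD27 (0.2 TPM) and CD79A (0.457 TPM) were below 1 TPM, and GPRC5D had no counts in any library. The 5 genes below the threshold were all surface proteins, and each of the listed transcription factors was above it.

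B cell genes were largely silent. Only 7 of 23 B cell identity genes reached 1 TPM (30.4%, against 62.1% of all genes). IGLL5, a lambda-like chain whose transcript shares exons with the lambda locus, led with 173 TPM, followed by CIITA, the master regulator of MHC class II, at 73.39, 75.09 and 74.48 TPM and the ETS factor SPIB at 23.1 TPM. MS4A1, which encodes CD20, had 0.01 TPM and PAX5, the factor that maintains B cell identity, 0.00333 TPM. CD22, CD79B, FCER2 and RAG2 had 0 counts in all 3 libraries.

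Antigen presentation genes were abundant. The MHC class II genes held 1.47% ± 0.0139 of TPM and 15 of 16 were expressed, against 62.1% of all genes. After CD74 came HLA-DRA at 2635.02, 2557.64 and 2528.8 TPM, HLA-DRB1 at 2166 ± 33.9 TPM and HLA-DQA1 at 685 ± 23.5 TPM. The MHC class I class held 0.992% ± 0.0202, with B2M at 4694 ± 203 TPM and HLA-B (1784 ± 25.8 TPM) above HLA-C (1275 ± 17.5 TPM) without overlap. HLA genes are polymorphic and resemble each other, so reads can be split between them, and the levels of HLA-DRB3 (124 TPM) and HLA-DRB4 (127 TPM) are uncertain for that reason.

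Genes of other lineages were low or at 0, with exceptions. In every such list the share reaching 1 TPM was below the 62.1% of all genes. Erythroid and megakaryocyte genes were the most silent blood lineage, with 1 of 22 expressed (EPOR, 4.61 TPM) and 13 at 0 counts, including GATA1, ALAS2 and the globin gene HBB. Of 21 T and NK cell genes, 3 reached 1 TPM: BCL11B (7.62 TPM), the adhesion molecule NCAM1 (5.02 TPM), which myeloma cells often carry as CD56, and CD247 (1.78 TPM). CD4, CD3D, GZMB and PRF1 had 0 counts. Myeloid genes were expressed in 3 of 21 cases. PRTN3, a neutrophil granule protease, was listed at 66.65, 72.61 and 62.28 TPM, while its neighbours in function AZU1 and ELANE and the myeloid factor SPI1 had 0 counts and MPO 0.02 TPM. CEBPA, another myeloid factor, had 9.58 TPM. Of the stem cell genes, the proto-oncogene MYB stood out at 87.6 TPM, and CD34 had 0.0233 TPM. No liver, pancreas and gut gene (of 11) and no muscle gene (of 9) reached 1 TPM.

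Outside blood lineages, 7 of 18 mesenchymal genes, 3 of 15 neural genes and none of the 11 liver, pancreas and gut genes reached 1 TPM, or 1 of these 11 without scramble replicate 3. Of 16 epithelial genes 7 were expressed, all under 10 TPM, with EPCAM at 9.54 TPM and KRT7 at 8.91 TPM. VIM, the intermediate filament of mesenchymal and blood cells, was at 944 ± 10.3 TPM and made up most of the TPM of the mesenchymal list, in which the N-cadherin gene CDH2 had 24.9 TPM and TWIST1 19.2 TPM. COL1A2, DCN and THY1 had 0 counts. The neural list had SOX2 at 13.82, 13.26 and 13.79 TPM, with SOX10, DCX and the neurofilament genes NEFL and NEFM at 0 counts. PRAME was the highest of the germ line and cancer-testis genes, at 5.89 TPM, and 15 of these 26 genes had 0 counts; 3 reached 1 TPM, and 1 did without scramble replicate 2.

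**Figure D3:**
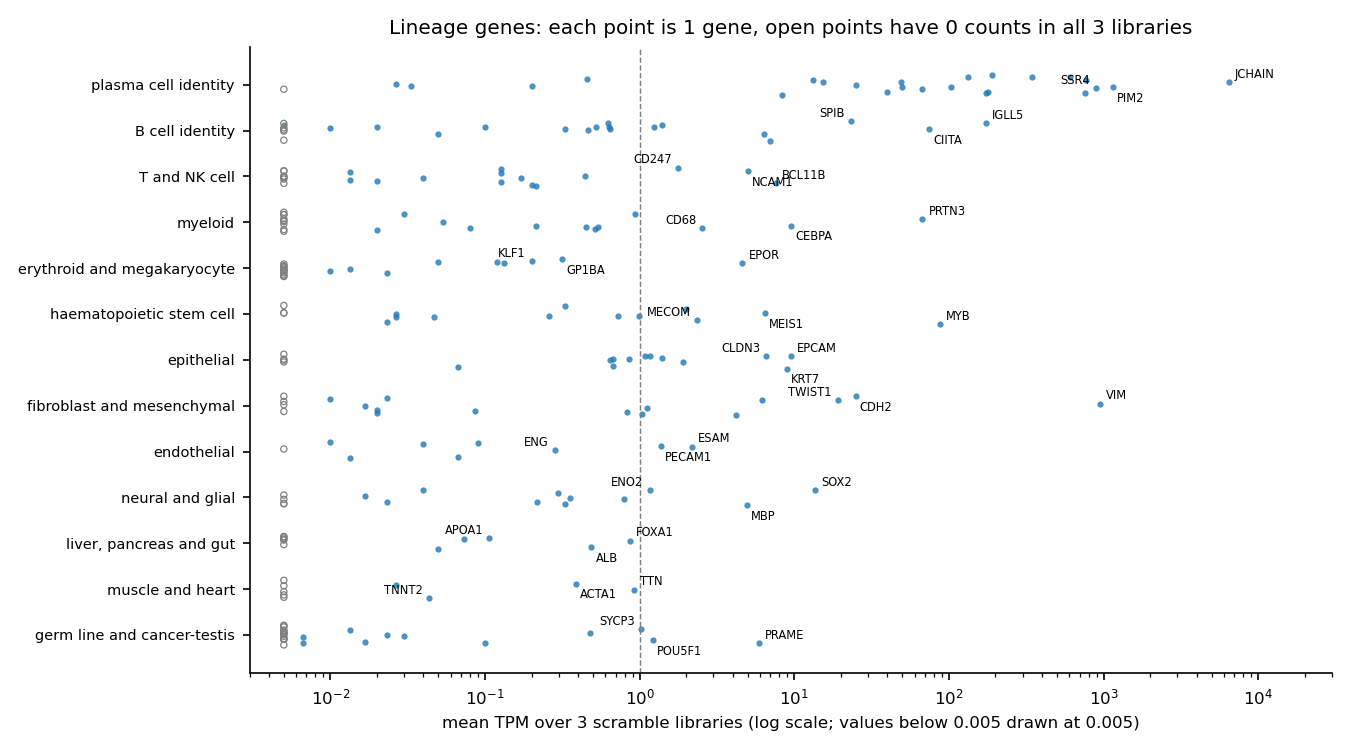
Mean TPM over the 3 scramble libraries (log scale) of each gene in 13 lineage lists, with up to 3 of the highest of each list named and the 1 TPM threshold dashed. Open points at the left edge are genes with 0 counts in all 3 libraries; 20 of 25 plasma cell genes lie right of the threshold, against 1 of 22 erythroid genes.

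Among gene families the expressed share ran from 0 of 22 GAGE, XAGE and SSX genes and 4 of 175 olfactory receptors (2.29%) to 341 of 511 zinc finger ZNF genes (66.7%). The ZNF genes were the only family described whose share was above the 62.1% for all genes. Only 1 of 53 clustered protocadherins reached 1 TPM, PCDHGB5 at 1.64 TPM. Keratins were expressed in 5 of 27 cases. KRT81, a hair keratin, was at 308.54, 295.41 and 286.21 TPM and its close relative KRT86 at 148.27, 144.21 and 148.56 TPM, a pair similar enough that reads may be shared. HOX genes were expressed in 11 of 37 cases, led by HOXB9 (39.6 TPM). Of 18 WNT ligands 6 were expressed, with WNT5B at 81.0 TPM, WNT10A at 45.1 TPM and WNT11 at 18.8 TPM. The MAGE genes that reached 1 TPM (7 of 32) were of the D, E, F and H groups, led by MAGED1 (115 TPM), while 18 of the family had 0 counts.

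FGFR3 dominated the receptor tyrosine kinases. It was listed at 858.04, 912.68 and 921.62 TPM, where the whole list summed to 1005, 1058 and 1067 TPM, and the next members were INSR at 18.02 TPM, EPHB1 at 15.6 TPM and IGF1R at 14.7 TPM. Of 53 kinases 18 reached 1 TPM (34.0%, against 62.1% of all genes). EGFR (0.0267 TPM), KIT (0.0267 TPM) and ERBB2 (0.97 TPM) did not, and MUSK, RET, ROS1 and STYK1 had 0 counts.

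The integrin list had the same shape. ITGB7, the beta 7 chain that pairs with alpha 4 or alpha E, stood at 1909.81, 1837.7 and 1848.1 TPM, above ITGB5 (208 TPM) and ITGB1 (121 TPM). Its partners were far lower, with ITGA4 at 37.9 TPM and ITGAE at 2.23 TPM. ITGAL, the alpha chain of LFA-1, was at 57.22, 56.42 and 58.36 TPM, whereas its only known partner chain, ITGB2, had 0 counts in all 3 libraries.

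Of 27 TNF receptors 14 reached 1 TPM (51.9%, against 62.1% of all genes). TNFRSF17, which encodes the myeloma target BCMA, led at 758.31, 753.06 and 771.17 TPM, followed by the death receptor FAS at 230.94, 238.55 and 241.13 TPM, TNFRSF1B at 133 ± 3.58 TPM and TNFRSF13B, which encodes TACI, at 49.7 ± 0.903 TPM. CD40 and LTBR had 0 counts. Transcripts of the ligands of BCMA were nearly absent, with TNFSF13 at 0.07 TPM and TNFSF13B at 0.507 TPM.

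Cytokine receptors were expressed in 24 of 39 cases (61.5%), near the 62.1% of all genes. The common gamma chain IL2RG led at 682.84, 686.46 and 677.52 TPM, followed by IL6ST, the signalling chain of the interleukin 6 family, at 104 ± 4.79 TPM, IFNAR2 at 87.5 TPM and IL27RA at 70.3 TPM. IL6R itself was at 3.90 TPM, and IL6, a growth factor of myeloma cells, had 1 count in 3 libraries. CSF3R, IL2RA, IL5RA and PRLR had 0 counts. For interleukin 10 both sides were present: IL10 was at 72.5, 89.93 and 84.83 TPM, IL10RA at 16.9 TPM and IL10RB at 51.7 TPM. IL15 (5.43 TPM) likewise stood beside IL15RA (28.8 TPM), IL2RB (32.4 TPM) and IL2RG.

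Among 24 receptors for chemokines or sphingosine-1-phosphate, atypical chemokine receptors included, 6 were expressed (25%, against 62.1% of all genes). CXCR4, which holds plasma cells in the bone marrow, led at 140.29, 145.97 and 152.05 TPM. Next were CCR1 (44.2 TPM), CCR10 (12.5 TPM) and the sphingosine-1-phosphate receptor S1PR2 (10.8 TPM). The ligand of CXCR4, CXCL12, had 3 counts in all. The CCR1 ligands CCL5 (116 TPM) and CCL3 (13.4 TPM) were expressed beside their receptor. CD70 was at 34.9 TPM while its receptor CD27 was at 0.2 TPM. The innate sensors CGAS (39.7 TPM), IFIH1 (36.1 TPM) and STING1 (32.5 TPM) were the highest of 18, and TLR2 and TLR8 had 0 counts. Among 37 nuclear receptors 22 were expressed (59.5%, against 62.1% of all genes). The glucocorticoid receptor NR3C1 was first at 75.02 TPM, followed by RARA (48.8 TPM) and NR1H2 (39.8 TPM).

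Of 23 genes listed as targets of myeloma antibodies or cell therapies, 15 reached 1 TPM (65.2%, against 62.1% of all genes). After CD74, ITGB7 and TNFRSF17 the highest were BST2 (376 ± 0.747 TPM) and CD48 (230 TPM). GPRC5D and CD40 had 0 counts, and FCRL5 and SLAMF7 had under 0.1 TPM. These are transcript levels, and surface protein was not measured here.

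**Figure D4:**
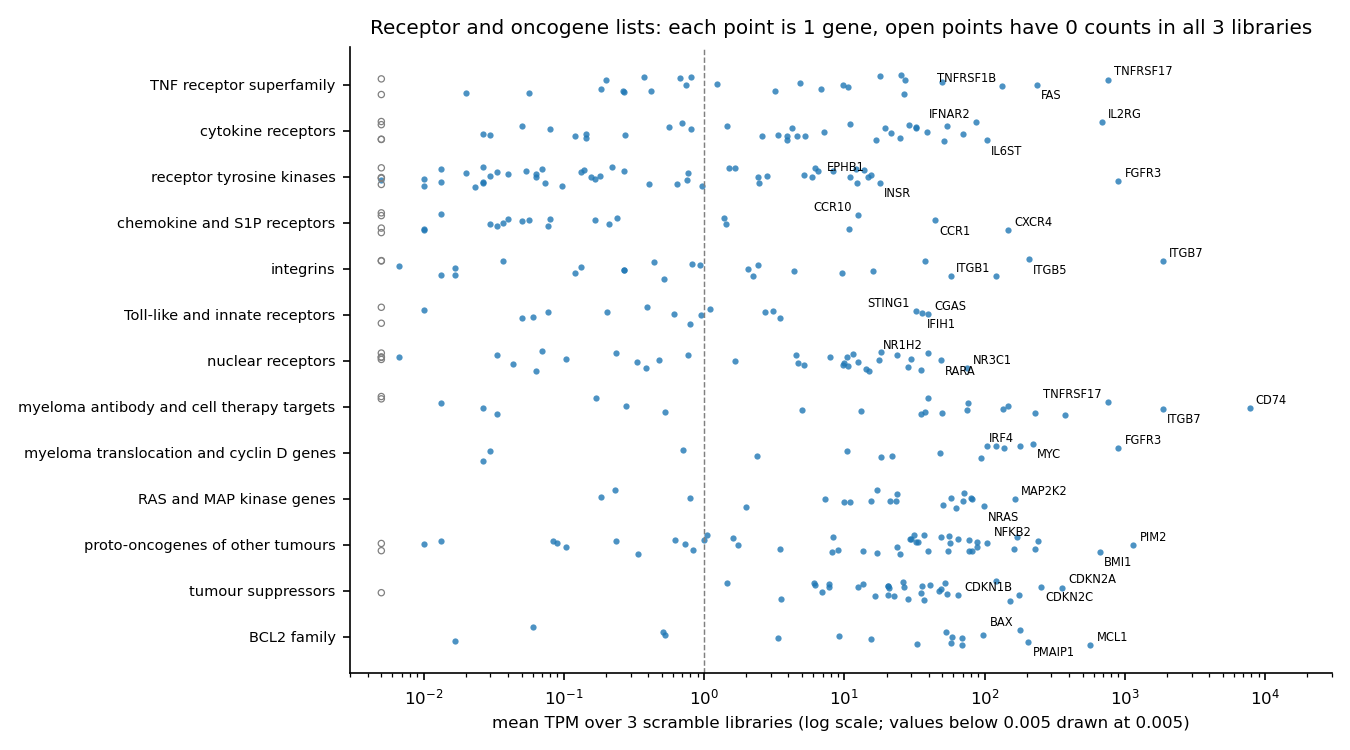
Mean TPM over the 3 scramble libraries (log scale) of each gene in 8 receptor and target lists and 5 oncogene, suppressor and apoptosis lists, with up to 3 of the highest of each named and the 1 TPM threshold dashed. Open points are genes with 0 counts in all 3 libraries; in the kinase list FGFR3 stands at 897 TPM and the next gene, INSR, at 18.02 TPM.

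The translocation genes of myeloma included several at high levels together. After FGFR3, MYC was at 222.26, 217.99 and 222.71 TPM, IRF4 at 179 TPM, MAF at 135.93, 137.19 and 138.86 TPM, NSD2 at 123.15, 118.68 and 121.24 TPM and CCND2 at 106.45, 102.26 and 105.36 TPM. KMS11 is known to carry translocations that involve the FGFR3 and NSD2 locus and MAF. CCND3 was at 48.0 TPM, MYCN at 21.7 TPM and CCND1 at 0.0267 TPM. Between FGFR3 and NSD2 on chromosome 4 lies LETM1 (12.1 TPM), and beyond them TACC3 had 90.6 TPM and NELFA 15.2 TPM, so the immediate neighbours did not share the level of FGFR3.

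Signalling oncogenes were expressed broadly. Of 21 RAS and MAP kinase genes 18 reached 1 TPM (85.7%, against 62.1% of all genes). MAP2K2 was at 165 TPM, NRAS at 98.7 TPM and PTPN11 at 80.3 TPM. The immediate early gene EGR1 was at 0.233 TPM. Among 48 proto-oncogenes 35 were expressed (72.9%, against 62.1% of all genes). The highest were PIM2, the Polycomb gene BMI1 (666 TPM), NFKB2 (241 TPM) and TCF3 (230 TPM). BMI1 overlaps the readthrough gene COMMD3-BMI1 (26.0 TPM), so its level is uncertain. ERG and TLX1 had 0 counts.

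Tumour suppressor genes were expressed almost throughout. Of 33 genes 32 reached 1 TPM (97.0%, against 62.1% of all genes). First were the cyclin-dependent kinase inhibitors CDKN2A at 352.76, 368.48 and 341.99 TPM, CDKN2C at 254.83, 257.27 and 249.77 TPM and CDKN1B at 175 TPM. BIRC3 (151 TPM) followed. RB1 was at 22.5 TPM.

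In the BCL2 family 13 of 17 genes were expressed (76.5%, against 62.1% of all genes). The survival gene MCL1 was first at 572.25, 560.14 and 567.26 TPM, above BCL2 (69.5 TPM) and BCL2L1 (53.3 TPM). The killers PMAIP1 (206 TPM) and BAX (178 TPM) were next to MCL1 in order, and BCL2A1 was at 0.06 TPM.

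Placed on the genome with GENCODE release 29 (GRCh38), 11092 expressed genes had a median of 22.6 TPM, and 2 neighbouring windows on the long arm of chromosome 1 stood furthest above it. Of 213 windows of 10 Mb with at least 20 expressed genes, the window from 150 to 160 Mb of chromosome 1 had the highest median, 89.6, 84.8 and 83.3 TPM in the 3 libraries, over 136 genes. The next window, from 160 to 170 Mb, was second in each library with 64.6, 60.9 and 67.4 TPM over 65 genes, and the median over windows was 23.5 TPM. Together the 201 genes had a median of 76.6 TPM against 22.3 TPM for the 10891 placed elsewhere, and 41.8% of them reached 100 TPM against 14.6%. The windows were chosen after these values were seen, so this is a description without a test, and DNA copy number was not measured here.

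Within their classes, the 36 genes of the 150 to 160 Mb window had a median percentile of 88.7 by TPM, first of 66 windows. The 11 genes of the 160 to 170 Mb window had a median percentile of 50, which ranked 40. In the first of these windows 5 genes were the highest of their class: RPS27, PSMB4, the mitochondrial ribosome gene DAP3 (569 ± 4.13 TPM), the isoprenoid synthase FDPS (1258 ± 23.6 TPM) and S100A11 (1667 ± 33.2 TPM). PSMD4, MRPL24 and CKS1B were second in theirs. Some class members there were low, such as MRPS21 (21.4 TPM), CTSK (18.03 TPM) and ANXA9 (1.41 TPM). The 154 genes outside every class had a median of 60.8 TPM against 19.6 TPM for those elsewhere. By whole chromosome, the lowest medians were on chromosome 14 (13.95 TPM) and chromosome 13 (14.9 TPM).

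**Figure D5:**
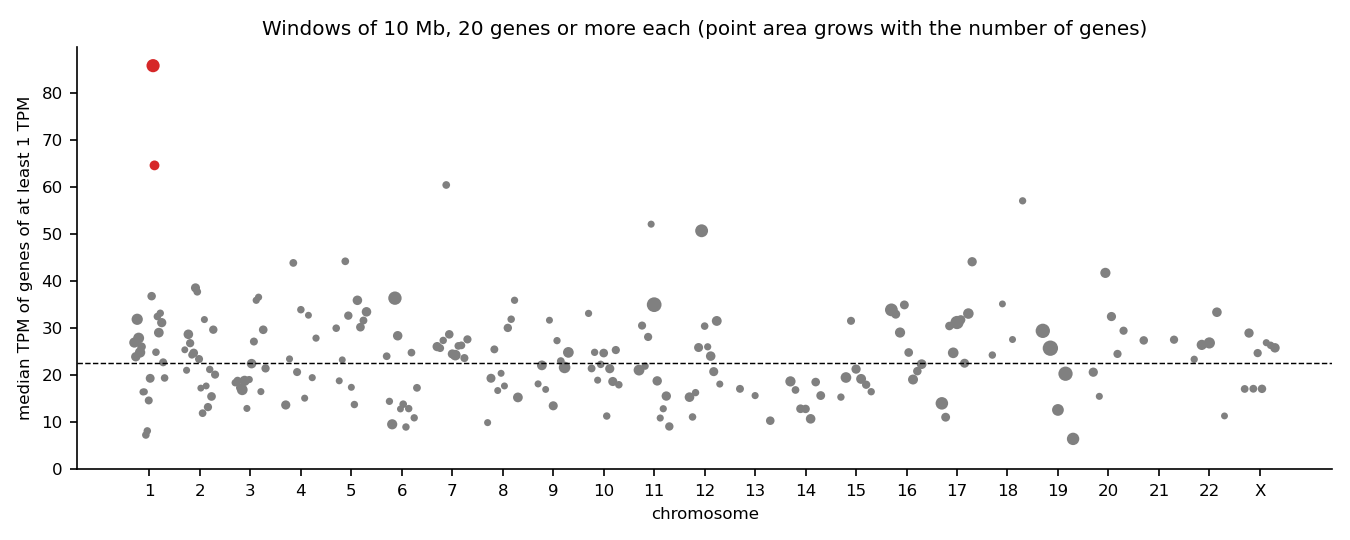
Median TPM of the expressed genes in each 10 Mb window with at least 20 such genes, by chromosome, over the 3 scramble libraries; point area grows with the number of genes and the dashed line is the median of all placed genes, 22.6 TPM. The 2 red points are the neighbouring windows on the long arm of chromosome 1, at 85.9 and 64.7 TPM.

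Replicates lay close together. The median coefficient of variation of TPM was 4.33% over the expressed genes, 13.003% at 1 to 3 TPM, 4.42% at 10 to 30 TPM and 2.39% at 1000 TPM or more. The value expected from counting, 1 over the square root of the mean count, had medians of 13.5%, 4.14% and 0.906% at those levels. A median over values from only 3 libraries tends to lie below the expected value, so the comparison is not on an equal footing. From 10 TPM upward the spread between libraries was larger all the same. Below 10 TPM these values cannot show whether it exceeded counting. The common biological coefficient of variation, the spread that edgeR estimates beyond counting, was 2.79% over 11788 genes. A chi-square of the counts, which averages 1 under counting noise, averaged 2.61 between replicates 1 and 2, 2.27 between 1 and 3 and 1.62 between 2 and 3, so each pair of libraries differed by more than counting noise. Of 7847 genes of at least 10 TPM, 70.8% had a coefficient of variation below 5% and 26 genes had one above 20%.

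The genes of largest spread fell into 2 kinds. For some the counts moved: LOC102723728 had 0, 36.34 and 28.86 TPM, U2AF1L5, a near copy of the splicing factor U2AF1, had 56.14, 35.13 and 25.17 TPM, and DERPC had 36.3, 63.78 and 38.49 TPM. The histone gene H2AC11 had only 39, 29 and 19 counts. For others the counts were steady and the TPM moved. DGKD, a diacylglycerol kinase, had 593, 599 and 578 counts but 20.13, 13.25 and 10.81 TPM, and ZNF430 had 221, 241 and 231 counts but 12.1, 6.62 and 12.35 TPM. Levels of single transcripts were not analysed here. Among the 100 most abundant genes CRIP1 had the largest coefficient of variation, 8.91%, against a median of 2.35%.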

How the data were processed

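The deposited table gives estimated counts, FPKM and TPM for 17918 genes in 6 libraries. Per the submitters' processing notes the tools were HISAT2 2.1.0, Bowtie2 2.2.5 and RSEM 1.2.8, with build GRCh38.p13; their roles and the strand setting are not given in the sources used here, so overlapping genes on opposite strands cannot be told apart. The deposited expected counts are estimates (87.7% to 87.9% of values in a library are whole) and were rounded for edgeR 4.0.16 and DESeq2 1.42.0. The deposited TPM and FPKM values are normalized by the authors to length and depth.

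Genes of the 3 scramble libraries were kept at a mean of at least 1 TPM. Means, SDs and coefficients of variation were computed on TPM. There was no test between groups. The common biological coefficient of variation came from an intercept-only edgeR fit of genes passing its filter (minimum count 10), checked on simulated data. The chi-square used genes of at least 20 summed counts in a pair. Each gene was placed in 1 of the functional classes by name; 26 lists and the families were described by the number of members at or above 1 TPM, beside 62.1% for all genes. Genes were positioned by identifier in GENCODE 29. The members, classes and lists were chosen with earlier results of these data known; several classes, the genome windows, the receptor and ligand pairs and the neighbours of a locus were added after their values were seen. Genes named are the first 30 by TPM, the highest of each class and list, list members at 0 counts by symbol order, CRIP1, genes at the threshold and those of largest spread; others were named after their values were seen. Alternatives tried are given in the closing section. Some genes of the table are not reported here.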

Additional observations from a re-analysis of the deposited data

How the results depend on the processing

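The number of genes of at least 1 TPM (11135) stayed within 1.5 times under the other thresholds tried, from 9206 at 5 TPM to 11804 at 0.5 TPM, and the 271 of 571 distinct list genes at 1 TPM became 309 at 0.5 TPM and 215 at 5 TPM. Of 215 recomputed counts of single lists and families 27 moved by over 1.5 times, among them B cell identity (7 to 11 at 0.5 TPM), HOX genes (11 to 5 at 5 TPM), WNT ligands (6 to 3 at 5 TPM) and olfactory receptors (4 to 9 at 0.5 TPM and 0 at 5 TPM). The share of the 100 most abundant genes fell from 32.4% of TPM to 16.8% of counts when both ranking and share used counts, and was 26.1% without cytosolic ribosomal proteins and 31.6% without the MTRNR2L genes, an alternative chosen after seeing the data. The ribosomal protein share was 5.36% by counts and 18.6% without RPS27. The shares of the 27 other classes also moved by over 1 SD with counts, and of all 28 classes 10 had a TPM share over 1.5 times their count share and 2 the opposite. The median coefficient of variation was 4.06% in genes with at least 50 counts in all 3 libraries, 4.07% with TMM-scaled log2 CPM and 4.08% with DESeq2 size factors. With 1 library left out it was 3.27% to 3.801%. A median from 2 libraries tends to lie lower than a median from 3, so these last values do not show a smaller spread. Leaving out each library in turn gave 32.3% to 32.5% for the first 100 genes and 19.6% to 19.9% for ribosomal proteins. The CpG-rich share of expressed promoters was 83.3%, and 83.4% with at least 10 summed counts. The 150 to 160 Mb window of chromosome 1 kept the first rank with genes of at least 5 TPM, without class genes and without each library; with 5 Mb windows its parts ranked 1 and 4 of 193. No paired analysis was possible because the values come from 1 group and no groups were compared. Depth limits genes under about 3 TPM, and 3 libraries limit every SD.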
